A study of Mus musculus with 12 samples.

Results

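Heat shock proteins and chaperonins help other proteins to fold, keep damaged ones from clumping and hand over for degradation those beyond repair. HSP70 proteins (Hspa genes) bind and release unfolded stretches with the help of ATP, J-domain proteins (Dnaj genes) bring clients to them, HSP110 proteins reset their cycle and HSP90 proteins finish kinases and receptors. HSP60 with HSP10 folds proteins in the mitochondrial matrix, small heat shock proteins hold unfolded proteins without ATP, and the cytosolic chaperonin CCT, a barrel of different subunits, folds actin and tubulin. Heat shock factor HSF1 turns many of these genes on under stress, and muscle cells are known to draw on them when fibres are built and when they are damaged.

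The genes described here were chosen by symbol from the RNA table of muscle satellite cells (SCs), the stem cells of skeletal muscle, and not by any measured value. The choice took symbols that start with Hspa, Hspb, Hspd, Hspe or Hsp and a digit, Hsph1, Dnaja, Dnajb or Dnajc and a digit, Cct2 to Cct8, Tcp1 and Hsf1, and left out 3 pseudogenes. It gave 67 of the 13775 genes: 9 HSP70 genes, 3 of HSP110, 3 of HSP90, 2 of HSP60 and HSP10, 5 small heat shock proteins, 33 J-domain genes (3 Dnaja, 9 Dnajb and 21 Dnajc), 9 of CCT and 3 of Hsf1 and HSP70- or HSP27-binding proteins. Of these, 42 reached at least 1 FPKM (fragments per kilobase, a level scaled to transcript length and sequencing depth) in at least 3 of the 12 libraries and were tested. The other 25 were not, among them Hsf1, so no count below speaks for all 67.

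The series held 12 libraries of polyA RNA, each from about 800 SCs sorted from muscle of 2-month-old mice as CD45-, Sca1-, CD11b-, CD31-, CD34+ and α7-integrin+ cells. FoxM1fl/fl mice carried loxP sites around both copies of Foxm1 and no Cre, whereas FoxM1-cKO mice carried the same floxed copies and a Cre under Pax7 (FoxM1fl/fl,Pax7Cre/+), so that deletion was aimed at Pax7-expressing cells and their descendants. Injured muscle had received 50 µl of 1.2% BaCl2 in the tibialis anterior and gastrocnemius, and SCs were taken 48 h post-injury, labelled as activated. Uninjured SCs, labelled as quiescent, came from muscle without BaCl2, for which the injury protocol names an injection of PBS. The mice were on a C57BL/6J background. There were 3 libraries in each of the 4 groups. The sources do not say which mice gave which library. The p-values therefore measure the spread between libraries, which may be technical, and fewer cells of a type and less RNA per cell cannot be told apart.

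By the size of the smallest steps between values, a library held 170701 to 642010 reads in uninjured and 907558 to 2854548 reads in injured SCs, and members above 0 numbered 13 to 20 and 40 to 51 per library. Foxm1 was at 5.48, 8.95 and 7.38 FPKM in uninjured and 32.8, 29.4 and 42.0 FPKM in injured FoxM1fl/fl SCs, against 0 in all uninjured FoxM1-cKO libraries and 3.48, 1.28 and 0.832 FPKM in injured ones (adjusted p = 0.128 uninjured and 0.018 injured, limma). At no single gene length were more than 5 of its 9 values above 0 whole numbers of reads, whereas each of the 67 members had a length at which all were. Of the positive sort markers, Itga7 (α7-integrin) was above 0 in 2 of 12 libraries and at 0 in every uninjured one. Cd34 was at 0 in all uninjured libraries but FoxM1-cKO uninjured 3 (9.60 FPKM) and at most 2.55 FPKM after injury. Ly6a (Sca1), a negative marker, was at 0 without injury. After injury it was at 11.4, 14.7 and 1.15 FPKM in FoxM1fl/fl and 0, 0 and 4.57 FPKM in FoxM1-cKO SCs. Of other SC genes, Cdh15 was above 0 in 2 libraries, at 0 in every uninjured one, and Sdc4 in 11. Of 15 SC genes, 2 to 6 were above 0 per uninjured and 6 to 12 per injured library, and 2 endothelial genes summed to at most 15.3 FPKM. Fibre genes (17 in the table) held 1.37 to 6.34% of summed FPKM in uninjured FoxM1fl/fl, 13.4 to 25.9% in uninjured FoxM1-cKO and at most 0.158% in injured libraries. They were led by Acta1, Actn3 and Mylpf in uninjured FoxM1fl/fl libraries, by Acta1, Mb and Pgam2 in FoxM1-cKO uninjured 1 and 2, and by Eno3 in FoxM1-cKO uninjured 3. In 3 libraries (FoxM1fl/fl uninjured 1, FoxM1-cKO uninjured 2 and FoxM1fl/fl injured 1) the values followed a weighted sum of the other 2 libraries of the group. FoxM1fl/fl injured 1 held 436 of 436 genes found in injured 2 and absent from injured 3, at a median of 0.676 times their level, and 317 of 319 genes of the reverse kind, at 0.322 times. Among members the same held for Hspa1a, Hspb2, Dnajc9 and Hspbp1 (4 of 4) and for Dnajc17 (1 of 1), and whether these libraries are independent measurements was not tested.

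The sequence that HSF1 is known to recognise, the heat shock element, is built of the unit GAA alternating with its reverse complement TTC. Promoter windows from RefSeq (GRCm38.p6, 250 bases before to 50 after the start) were found for 54 members and searched for 2 adjoining units, GAANNTTC or TTCNNGAA, each of which reads the same on both strands, with overlaps allowed. A match was found in 15 of the 54 members (27.8%) and in 4587 of 27025 genes in the whole promoter table (17.0%). Matches of 3 adjoining units (GAANNTTCNNGAA or TTCNNGAANNTTC) were found in 4 of the 54 (7.41%), namely Hspd1, Hspe1, Hsph1 and Dnajb6, and in 0.662% of all genes. Hspd1 and Hspe1 lie head to head and share one promoter region, so their matches are the same bases. No window was found for Hspa8, Hsp90aa1, Hsp90ab1, Dnajc11 and Cct4, among others. Tcp1 and Cct7, called after injury in both genotypes, held no match, nor did Cct3 and Cct8. The windows of Hspd1, with the longest run of units, of Hspa1b, the stress-inducible HSP70 gene whose uninjured values did not overlap between genotypes, and of Cct5 and Cct2, subunits with a match that were called after injury in both genotypes, are shown 5′ to 3′ on the strand of the gene, with matches in capitals.
Hspd1, chr1:55087883-55088182, minus strand: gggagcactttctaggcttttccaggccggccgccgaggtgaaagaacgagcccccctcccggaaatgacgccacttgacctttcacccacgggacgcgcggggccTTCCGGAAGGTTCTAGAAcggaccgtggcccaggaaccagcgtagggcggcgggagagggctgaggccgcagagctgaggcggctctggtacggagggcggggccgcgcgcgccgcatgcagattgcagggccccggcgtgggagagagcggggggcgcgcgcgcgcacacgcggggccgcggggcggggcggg
Hspa1b, chr17:34959189-34959488, minus strand: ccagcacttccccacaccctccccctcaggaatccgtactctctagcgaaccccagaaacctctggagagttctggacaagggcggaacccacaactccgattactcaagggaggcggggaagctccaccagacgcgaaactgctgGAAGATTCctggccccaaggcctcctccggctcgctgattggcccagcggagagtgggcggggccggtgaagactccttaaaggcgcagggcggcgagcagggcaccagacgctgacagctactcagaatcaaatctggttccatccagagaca
Cct5, chr15:31601797-31602096, minus strand: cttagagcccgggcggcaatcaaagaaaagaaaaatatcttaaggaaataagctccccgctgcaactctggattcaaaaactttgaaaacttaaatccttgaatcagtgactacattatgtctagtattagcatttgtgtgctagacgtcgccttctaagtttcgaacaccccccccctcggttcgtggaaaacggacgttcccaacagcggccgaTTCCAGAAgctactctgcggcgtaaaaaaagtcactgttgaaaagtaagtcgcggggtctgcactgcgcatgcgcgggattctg
Cct2, chr10:117063326-117063625, minus strand: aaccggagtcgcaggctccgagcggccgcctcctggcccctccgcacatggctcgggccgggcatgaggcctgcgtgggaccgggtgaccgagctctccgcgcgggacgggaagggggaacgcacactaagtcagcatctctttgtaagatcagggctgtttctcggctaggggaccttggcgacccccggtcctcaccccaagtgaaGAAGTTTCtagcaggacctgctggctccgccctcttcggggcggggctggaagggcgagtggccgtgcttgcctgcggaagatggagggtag
In these windows the run of Hspd1 began at position -144 from the start, the match of Hspa1b at -104, that of Cct2 at -42 and that of Cct5 at -34. A match is a description of the letters alone, and binding of HSF1 was not measured.

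**Figure D1:**
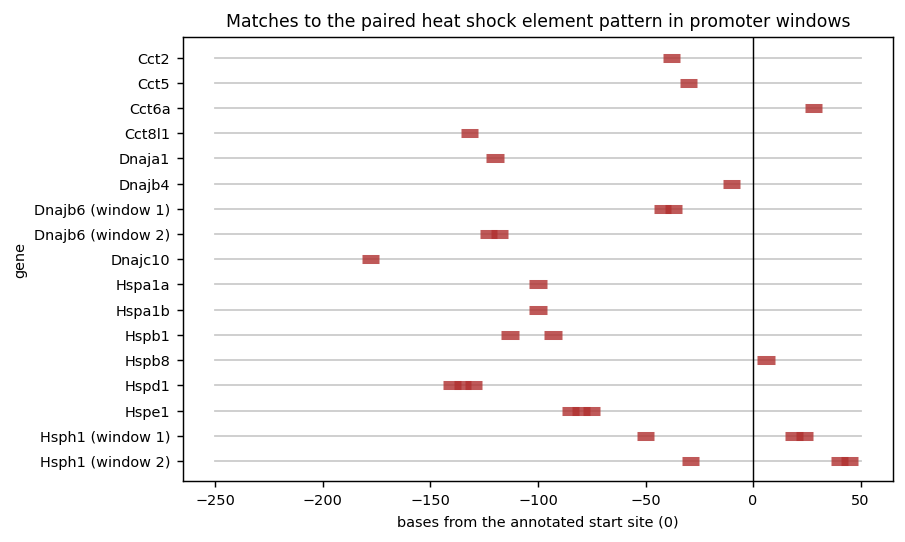
Position of each match to 2 adjoining heat shock units, in bases from the annotated start, in the promoter windows of the members that held one. Each mark is a match and each line a promoter window, with separate lines for the windows of Dnajb6 and of Hsph1. The 3 matches of Hspd1 and Hspe1 are the same bases seen from either side.

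The first question was how SCs differed with injury. Many members were higher at 48 h post-injury in both genotypes, above all the CCT subunits and Hsp90ab1. Members held 0.0225 to 0.297% of summed FPKM in uninjured and 0.452 to 0.869% in injured libraries, with no overlap. Among FoxM1fl/fl SCs, 15 of the 42 tested members (35.7%) were higher after injury and 0 lower in limma at an adjusted p under 0.05, where 18.8% of all 4956 genes tested were higher (20.8% changed either way). Among FoxM1-cKO SCs, 13 of 42 (31.0%) were higher and 0 lower, where 23.4% of all genes were higher (24.5% either way). At an unadjusted p under 0.05, 23 and 15 members passed. Members at 0 in every uninjured library, among them Cct2, Cct6a, Dnajc7, Dnajc17, Dnajb4 and Hspa4, passed the filter through injured libraries alone. Such members could show no change with injury other than a rise. All uninjured FoxM1fl/fl libraries were at 0 for 18 of 42 members and 2753 of 4956 genes. In FoxM1-cKO SCs these were 17 and 3077. The median change over tested members on the log2(FPKM + 1) scale was 2.93 in FoxM1fl/fl and 1.90 in FoxM1-cKO SCs, against 1.51 and 1.68 over all genes tested, and 2.02 and 1.30 against 0.17 and 0.0 when groups at 0 were set to 3 reads. Injured and uninjured values did not overlap for 18 members in FoxM1fl/fl SCs (42.9%, against 35.4% of all genes), all higher after injury (33.2% of all genes). In FoxM1-cKO SCs they did not for 22 (52.4%, against 46.2%), of which 21 were higher (44.8% of all genes) and Hspa1b was lower.

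These calls depended on scaling, on depth and on the weighted-sum libraries. With reads thinned to 170701 in each library, 11 members were called in FoxM1fl/fl and 10 in FoxM1-cKO SCs, all higher. In that setting 13 and 15.8% of all genes were called. Quantile normalization, which took the median change of all genes to 0.14 and 0.10, left 2 called members in FoxM1fl/fl (Hspa8 and Hsp90ab1) and 3 in FoxM1-cKO SCs (Cct4 and Cct2 higher, Hspa1b lower), and split the calls over all genes into 172 higher and 168 lower, against 934 and 95 before, in FoxM1fl/fl SCs. With the 3 weighted-sum libraries left out, limma called none of 3856 genes in any comparison, although 33 of 36 tested members in FoxM1fl/fl and 34 of 36 in FoxM1-cKO SCs still had a higher mean after injury and 8 and 12 an unadjusted p under 0.05. Left out one at a time, no library ended the calls of Dnajc11, Hspa8, Hsp90ab1, Cct3, Cct5 and Cct8 in FoxM1fl/fl SCs, whereas the other 9 all ended without FoxM1fl/fl uninjured 1. In FoxM1-cKO SCs none ended the calls of Hsp90ab1, Cct2, Cct4, Cct5, Cct6a and Cct7, and the other 7 all ended without FoxM1-cKO uninjured 2.

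**Figure D2:**
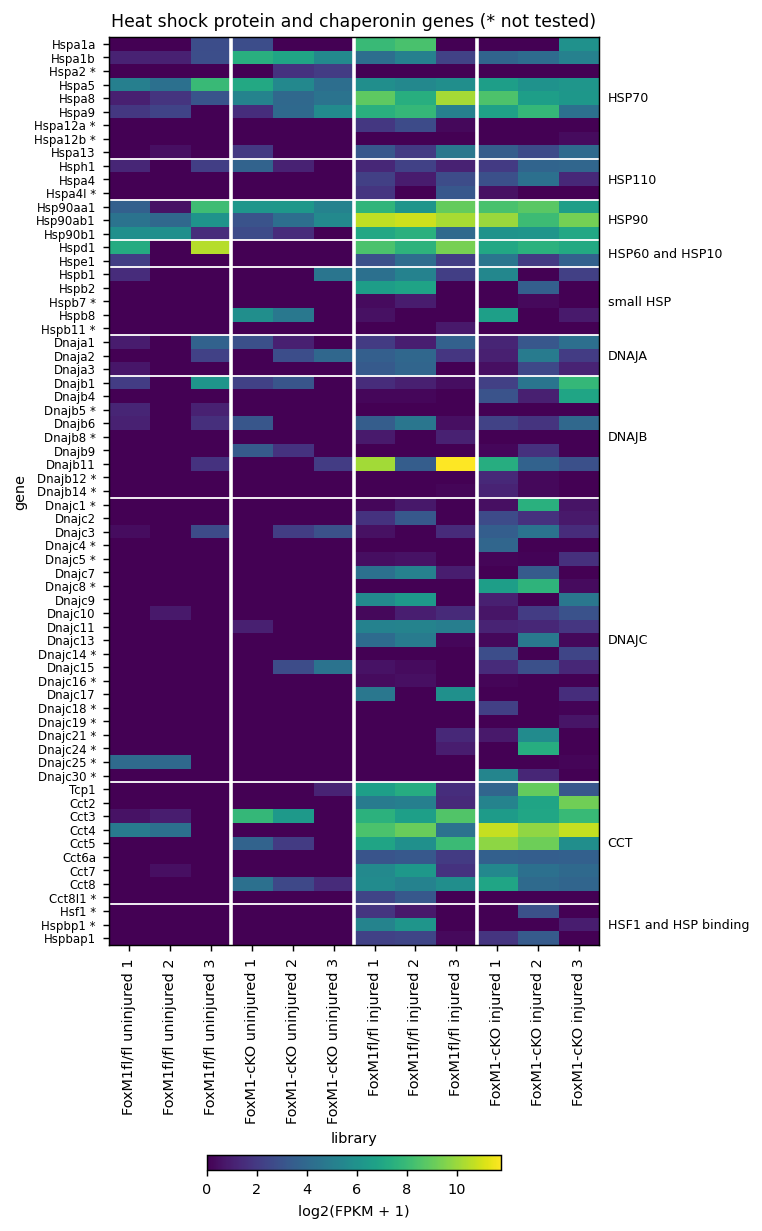
Level of the 67 members in each of the 12 libraries, as colour on the log2(FPKM + 1) scale, in order of role, with * on the 25 not tested. Most cells of the uninjured libraries are at or near 0, the tested CCT genes are above 0 in all 6 injured libraries, and Hspa1b stands out in uninjured FoxM1-cKO SCs.

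The second question was how SCs differed with loss of FoxM1, and 1 member did by the test. In uninjured SCs limma called 0 of 42 members, where 1.53% of all genes tested were called, and 7 members had an unadjusted p under 0.05. The values of the genotypes did not overlap for 3 members (Hspa1b, Hspa8 and Cct8, all higher in FoxM1-cKO), 7.14% of those tested against 7.1% of all genes. In injured SCs 1 member, Dnajc11, was called, lower in FoxM1-cKO (2.38% of members, where 7.81% of all genes were called and 2.66% were lower), and 6 had an unadjusted p under 0.05. Genotypes in injured SCs did not overlap for 11 members (26.2%, against 23.1% of all genes): Hspa5, Dnajb1, Dnajb4, Dnajc3, Dnajc15, Cct2, Cct4 and Cct6a were above, and Hsp90ab1, Hspd1 and Dnajc11 below, in FoxM1-cKO. Without FoxM1fl/fl injured 3, 5 of 40 tested members were called, all lower in FoxM1-cKO (Hspa1a, Hspb2, Dnajc7, Dnajc9 and Dnajc11), where 14.5% of all genes were called. Without injured 2 of that group 3 of 39 were, also lower (Dnajb11, Dnajc11 and Dnajc17), where 9.61% of all genes were called. Without injured 1 the count was 0, where 1.3% of all genes were called. In uninjured SCs 3 of 42 members were called, all higher (Hspa1b, Cct3 and Dnajb9), without FoxM1-cKO uninjured 3, where 4.91% of all genes were called. The count was 1 each without FoxM1-cKO uninjured 1 (Dnajc15, higher), FoxM1fl/fl uninjured 2 (Hspd1, lower) and FoxM1fl/fl uninjured 3 or injured 3 (Hspa1b, higher). Of all genes, 5.27, 3.89, 7.75 and 2.01% were called in these fits. Apart from the fit without FoxM1fl/fl injured 1, each of these fits kept the weighted-sum library of the group that lost one. Libraries kept in that group may therefore not be independent. Dnajc15, Dnajc9 and Dnajb9 are named here after their values were seen. The median over members in injured SCs, 0.11 against 0.32 for all genes, turned to -0.17 after median-ratio scaling and to -0.27 after quantile normalization. For the difference of the knockout effect between injured and uninjured SCs, 0 members were called, 5 had an unadjusted p under 0.05, and 1.09% of all genes were called.

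Values of other cell types moved with these groups. The share of the fibre genes was higher in each uninjured FoxM1-cKO than in each uninjured FoxM1fl/fl library, with 14 to 16 and 13 of the 17 above 0 and Casq1 at 0 in all 6. By limma, 1 of the 17 was called between uninjured genotypes, higher in FoxM1-cKO, where 1.53% of all genes were called. Single genes were uneven. Pgam2 was at 95161, 49830 and 10741 FPKM in uninjured FoxM1-cKO against 319, 102 and 2111 in uninjured FoxM1fl/fl SCs. Actn3 was at 555, 2466 and 3653 FPKM against 3167, 2932 and 5511. Of 10 macrophage and leukocyte genes, the uninjured FoxM1fl/fl libraries 1, 2 and 3 held Ptprc (CD45, a sort marker) at 224, 248 and 0 FPKM and Fcer1g at 1287, 1364 and 0 FPKM, with the other 8 at 0. All 10 were at 0 in uninjured FoxM1-cKO SCs. In injured SCs they summed to 662 to 2080 FPKM in FoxM1fl/fl and 12.9 to 988 in FoxM1-cKO (5 to 8 and 4 to 6 above 0, with Ptprc and Csf1r near 0), and 10 fibro-adipogenic genes, led by Col1a2, to 790 to 962 and 2790 to 3830 FPKM. The part of these in the differences between genotypes was not tested.

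Hsf1, which drives the heat shock response, was at 0 in every library of both genotypes without injury. After injury, Hsf1 was at 2.49, 0.746 and 0 FPKM in FoxM1fl/fl and 0, 6.60 and 0 FPKM in FoxM1-cKO SCs. It was at 0 in 9 of 12 libraries and was not tested. Hspbap1, named for its binding to the small heat shock protein HSP27, was at 0 in every library of both genotypes without injury. After injury, Hspbap1 was at 3.91, 4.58 and 0.240 FPKM in FoxM1fl/fl and 2.52, 9.52 and 0 FPKM in FoxM1-cKO SCs. It was above 0 in 5 of 6 injured and in no uninjured library, and was not called in any comparison. Hsbp1, a protein outside the set that binds and restrains HSF1, was higher in uninjured FoxM1-cKO than uninjured FoxM1fl/fl SCs (adjusted p = 0.00396, limma, range 0.000839 to 0.604 over alternatives).

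Of the 6 tested HSP70 genes, 3 were higher after injury in FoxM1fl/fl SCs (Hspa8, Hspa9 and Hspa13) and 0 passed in FoxM1-cKO SCs, where 18.8 and 23.4% of all genes were higher. Hspa8, the HSP70 that cells make without stress, was at 1.05, 2.47 and 7.25 FPKM in FoxM1fl/fl and 37.1, 14.7 and 21.3 FPKM in FoxM1-cKO SCs without injury. After injury, Hspa8 was at 461, 166 and 1183 FPKM in FoxM1fl/fl and 355, 96.9 and 73.4 FPKM in FoxM1-cKO SCs. Uninjured FoxM1fl/fl libraries were the lowest of the series, at 2 to 5 reads, and every injured library was above every uninjured one. It rose after injury in FoxM1fl/fl SCs (log2 change 6.86, SE 1.18, adjusted p = 0.00248 from limma), where no single library left out ended the call, while the difference in FoxM1-cKO SCs did not pass (log2 change 2.54, SE 1.18, adjusted p = 0.127 from limma). The difference between these effects did not pass either (log2 change -4.32, SE 1.66, adjusted p = 0.161 from limma). Uninjured FoxM1-cKO values lay above all uninjured FoxM1fl/fl values, without passing the test (log2 change 2.61, SE 1.18, adjusted p = 0.249 from limma).

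Hspa9, the mitochondrial HSP70 that pulls proteins into the matrix, was at 2.73, 4.09 and 0 FPKM in FoxM1fl/fl and 1.92, 15.2 and 51.0 FPKM in FoxM1-cKO SCs without injury. After injury, Hspa9 was at 176, 232 and 34.7 FPKM in FoxM1fl/fl and 107, 227 and 19.4 FPKM in FoxM1-cKO SCs. In FoxM1fl/fl SCs the groups did not overlap and it rose (log2 change 5.41, SE 1.42, adjusted p = 0.0201 from limma), whereas in FoxM1-cKO SCs the uninjured library at 51.0 FPKM lay above the lowest injured one (log2 change 2.56, SE 1.42, adjusted p = 0.197 from limma). Hspa13, an HSP70 relative of the endoplasmic reticulum (ER) membrane fraction, was at 0, 0.383 and 0 FPKM in FoxM1fl/fl and 2.88, 0 and 0 FPKM in FoxM1-cKO SCs without injury. After injury, Hspa13 was at 8.24, 3.06 and 24.1 FPKM in FoxM1fl/fl and 9.99, 5.23 and 15.9 FPKM in FoxM1-cKO SCs. All 6 injured values were above all 6 uninjured ones, with a change that passed in FoxM1fl/fl (log2 change 3.14, SE 0.99, adjusted p = 0.043 from limma) and did not in FoxM1-cKO SCs (log2 change 2.74, SE 0.99, adjusted p = 0.0592 from limma). Hspa5 (BiP), the HSP70 of the ER lumen, was above 0 in every library, at 33.1, 19.5 and 249 FPKM in FoxM1fl/fl and 137, 44.1 and 18.3 FPKM in FoxM1-cKO SCs without injury. After injury, Hspa5 was at 56.3, 44.3 and 56.4 FPKM in FoxM1fl/fl and 94.9, 63.4 and 72.9 FPKM in FoxM1-cKO SCs. Uninjured FoxM1fl/fl libraries spanned the whole range of the injured ones, and no change with injury passed (log2 change -0.08, SE 1.21, adjusted p = 1 from limma in FoxM1fl/fl and log2 change 0.64, SE 1.21, adjusted p = 0.695 from limma in FoxM1-cKO).

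Hspa1b and Hspa1a encode the stress-inducible HSP70 and lie next to each other on chromosome 17 of mm10, Hspa1b from 34956436 to 34959238 and Hspa1a from 34969190 to 34972156, both on the minus strand. Hspa1b was at 1.19, 1.11 and 6.12 FPKM in FoxM1fl/fl and 171, 119.7 and 44.9 FPKM in FoxM1-cKO SCs without injury. After injury, Hspa1b was at 18.4, 34.5 and 3.93 FPKM in FoxM1fl/fl and 12.7, 16.6 and 35.1 FPKM in FoxM1-cKO SCs. The uninjured FoxM1-cKO libraries were the 3 highest of the series, with 82, 58 and 30 reads against 2, 2 and 3 in uninjured FoxM1fl/fl SCs. The difference did not pass (log2 change 4.94, SE 1.15, adjusted p = 0.0545 from limma, range 0.0121 to 1.0 over alternatives) and passed, for example, with the stricter filter (0.0315), with no mean-variance trend (0.0158) and without FoxM1fl/fl uninjured 3 (0.0121), FoxM1-cKO uninjured 3 (0.0219) or FoxM1fl/fl injured 3 (0.0331). All of these fits kept the weighted-sum libraries, which may not be independent. In injured SCs the genotypes overlapped (log2 change 0.46, SE 1.15, adjusted p = 0.855 from limma), and the difference of the knockout effect between injured and uninjured SCs did not pass (log2 change -4.48, SE 1.63, adjusted p = 0.145 from limma). Immediate early genes, which also respond within minutes to stress and cell handling, summed to 546 to 1770 FPKM in uninjured FoxM1fl/fl and 220 to 1920 FPKM in uninjured FoxM1-cKO SCs, 16 genes with overlapping ranges. Within these sums single genes went either way. Ier2 was at 9.85, 14.3 and 3.76 FPKM in uninjured FoxM1fl/fl and 1863, 749 and 35.9 FPKM in uninjured FoxM1-cKO SCs. Btg2 was at 110, 111 and 37.5 FPKM against 0, 2.11 and 1.53 FPKM. The part of cell handling in the Hspa1b values was not tested.

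Hspa1a was at 0, 0 and 5.78 FPKM in FoxM1fl/fl and 5.92, 0 and 0 FPKM in FoxM1-cKO SCs without injury. After injury, Hspa1a was at 249, 332 and 0 FPKM in FoxM1fl/fl and 0, 0 and 60.8 FPKM in FoxM1-cKO SCs. It was at 0 in 7 of 12 libraries and was not called in any comparison. The longest open reading frames of the pair, 1926 and 1929 bases, differed at 8 bases and a gap of 3 (99.6% identity), so their reads could be assigned to either gene and the level of each alone is uncertain. Of the other HSP70 genes, Hspa2, Hspa12a and Hspa12b were above 0 in 2, 3 and 1 libraries and were not tested.

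HSP110 proteins are nucleotide exchange factors of HSP70. Hspa4 was at 0 in every library of both genotypes without injury. After injury, Hspa4 was at 3.72, 0.843 and 5.73 FPKM in FoxM1fl/fl and 6.30, 19.4 and 1.58 FPKM in FoxM1-cKO SCs. It was above 0 in all injured and no uninjured libraries, and the difference passed in FoxM1-cKO SCs (adjusted p = 0.0285, limma) but not in FoxM1fl/fl SCs (adjusted p = 0.102, limma). Hsph1, which carried 3-unit heat shock matches in its promoter, was at 1.40, 0 and 3.60 FPKM in FoxM1fl/fl and 12.3, 1.21 and 0 FPKM in FoxM1-cKO SCs without injury. After injury, Hsph1 was at 1.47, 3.92 and 1.16 FPKM in FoxM1fl/fl and 2.94, 12.8 and 13.9 FPKM in FoxM1-cKO SCs. Its values overlapped between groups in every comparison. Hspa4l was above 0 in 3 injured libraries, at most 8.14 FPKM, and was not tested.

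HSP90 genes were among the most abundant members. Hsp90ab1, the constitutive cytosolic HSP90, was at 21.1, 14.8 and 65.8 FPKM in FoxM1fl/fl and 6.97, 18.4 and 45.0 FPKM in FoxM1-cKO SCs without injury. After injury, Hsp90ab1 was at 1599, 1875 and 1196 FPKM in FoxM1fl/fl and 1019.8, 271 and 645 FPKM in FoxM1-cKO SCs. Every injured library lay above every uninjured one, and Hsp90ab1 rose in FoxM1fl/fl (log2 change 5.74, SE 1.09, adjusted p = 0.00434 from limma) and in FoxM1-cKO SCs (log2 change 4.88, SE 1.09, adjusted p = 0.00739 from limma), with no call lost when any single library was left out. In injured SCs all 3 FoxM1-cKO values lay below all 3 FoxM1fl/fl values without passing (log2 change -1.44, SE 1.09, adjusted p = 0.46 from limma). Hsp90aa1, the inducible cytosolic form, was at 11.2, 0.475 and 274 FPKM in FoxM1fl/fl and 71.4, 74.0 and 35.8 FPKM in FoxM1-cKO SCs without injury. After injury, Hsp90aa1 was at 208, 69.3 and 510.1 FPKM in FoxM1fl/fl and 340.2, 435 and 96.1 FPKM in FoxM1-cKO SCs. One uninjured library at 274 FPKM reached into the injured range, and no comparison passed (log2 change 3.53, SE 1.64, adjusted p = 0.119 from limma with injury in FoxM1fl/fl). Hsp90b1 (Grp94), the HSP90 of the ER, was at 57.4, 57.0 and 1.78 FPKM in FoxM1fl/fl and 5.45, 1.80 and 0 FPKM in FoxM1-cKO SCs without injury. After injury, Hsp90b1 was at 134, 176 and 15.0 FPKM in FoxM1fl/fl and 64.5, 69.3 and 132 FPKM in FoxM1-cKO SCs. It rose with injury in FoxM1-cKO SCs (log2 change 5.02, SE 1.45, adjusted p = 0.0248 from limma), where the groups did not overlap, but not in FoxM1fl/fl SCs, where they did (log2 change 1.78, SE 1.45, adjusted p = 0.362 from limma).

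Hspd1 (HSP60) and Hspe1 (HSP10) form the mitochondrial chaperonin. Hspd1, whose promoter held the longest run of heat shock units, was at 150.5, 0 and 1435 FPKM in FoxM1fl/fl and 0 in every library of FoxM1-cKO SCs without injury. After injury, Hspd1 was at 346, 195 and 667 FPKM in FoxM1fl/fl and 135, 186 and 142 FPKM in FoxM1-cKO SCs. It was listed at 0 in all uninjured FoxM1-cKO libraries, while the FoxM1fl/fl ones held 239, 0 and 663 reads and one of them was the highest of the series, with 66.9% of the summed FPKM of members in that library. The genotypes tied at 0 in uninjured SCs and did not differ by the test (adjusted p = 0.167, limma, range 0.00322 to 1.0 over alternatives). Without FoxM1fl/fl uninjured 2, the library at 0, the difference passed (adjusted p = 0.00322, limma). That fit kept FoxM1fl/fl uninjured 1, which followed a weighted sum that includes uninjured 3, so the libraries kept may not be independent. After injury Hspd1 rose from 0 in FoxM1-cKO SCs (adjusted p = 0.0188, limma) and overlapped with uninjured values in FoxM1fl/fl SCs (log2 change 2.57, SE 1.98, adjusted p = 0.334 from limma). Hspe1 was at 3.45, 0 and 0 FPKM in FoxM1fl/fl and 0 in every library of FoxM1-cKO SCs without injury. After injury, Hspe1 was at 6.47, 17.8 and 3.43 FPKM in FoxM1fl/fl and 24.0, 3.06 and 11.6 FPKM in FoxM1-cKO SCs. Hspe1 lay far below Hspd1 after injury and was at 0 in the uninjured library where Hspd1 was highest. It rose from 0 in FoxM1-cKO SCs (adjusted p = 0.0279, limma), and the difference did not pass in FoxM1fl/fl SCs (log2 change 2.37, SE 1.02, adjusted p = 0.0983 from limma).

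Of the small heat shock proteins, 3 were tested and 0 passed in any comparison. Hspb1 (HSP27), which guards actin filaments, was at 1.79, 0 and 0 FPKM in FoxM1fl/fl and 0, 0 and 22.6 FPKM in FoxM1-cKO SCs without injury. After injury, Hspb1 was at 19.3, 36.0 and 3.55 FPKM in FoxM1fl/fl and 42.6, 0 and 3.65 FPKM in FoxM1-cKO SCs. Hspb8, which works with Bag3 in the removal of damaged muscle proteins, was at 54.8, 25.5 and 0 FPKM in FoxM1-cKO and 0 in every library of FoxM1fl/fl SCs without injury. After injury, Hspb8 was at 0.430, 0 and 0 FPKM in FoxM1fl/fl and 99.2, 0 and 0.801 FPKM in FoxM1-cKO SCs. Both had an injured FoxM1-cKO library at 0 beside another at 42.6 or 99.2 FPKM. Hspb2, a muscle small heat shock protein and outside the rule for named genes, was named after its values were seen. Its FoxM1fl/fl injured libraries 1 and 2 held 93.9 and 114 FPKM and injured 3 held 0.

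**Figure D3:**
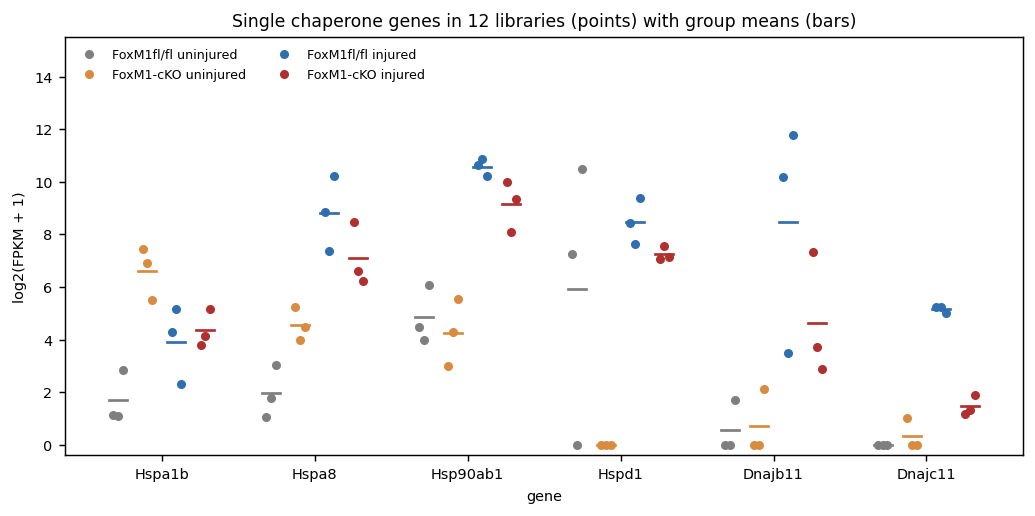
Level of Hspa1b, Hspa8, Hsp90ab1, Hspd1, Dnajb11 and Dnajc11 in each library on the log2(FPKM + 1) scale, with 3 points per group. Hspa1b is highest in the 3 uninjured FoxM1-cKO libraries (44.9 to 171 FPKM), Hspa8 and Hsp90ab1 are higher in all 6 injured libraries, and Dnajc11 is at 31.4 to 37.1 FPKM in the 3 injured FoxM1fl/fl libraries and at most 2.68 elsewhere.

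J-domain proteins start the ATP cycle of HSP70. Of the 17 tested, 4 rose with injury in FoxM1fl/fl SCs (Dnajb11, Dnajc7, Dnajc11 and Dnajc17) and 2 in FoxM1-cKO SCs (Dnajb4 and Dnajc10). These were 23.5 and 11.8%, against 18.8 and 23.4% of all genes tested. Dnajc11, a J-domain protein of the mitochondrial outer membrane tied to the shape of cristae, lies on chromosome 4 from 151933691 to 151982137 of mm10 and was the 1 member called between genotypes. It was at 1.04, 0 and 0 FPKM in FoxM1-cKO and 0 in every library of FoxM1fl/fl SCs without injury. After injury, Dnajc11 was at 36.6, 37.1 and 31.4 FPKM in FoxM1fl/fl and 1.25, 1.47 and 2.68 FPKM in FoxM1-cKO SCs. The injured FoxM1fl/fl values rested on 160 to 267 reads at the fewest, and the other 9 libraries held at most 31. The first of the 3 came from FoxM1fl/fl injured 1, which followed a weighted sum of the other 2, so its closeness to them cannot be told apart from that sum. Dnajc11 was lower in injured FoxM1-cKO than injured FoxM1fl/fl SCs (log2 change -3.72, SE 0.80, adjusted p = 0.0129 from limma, range 0.00353 to 0.313 over alternatives). The call ended with a pseudocount of 0.1, quantile normalization, the compared groups alone, and with the 3 weighted-sum libraries or FoxM1fl/fl injured 1 alone left out. It rose with injury from 0 in FoxM1fl/fl SCs (adjusted p = 0.0018, limma) and not by the test in FoxM1-cKO SCs (log2 change 1.11, SE 0.80, adjusted p = 0.31 from limma), and the difference of these effects did not pass (adjusted p = 0.0738, limma, range 0.0241 to 0.709 over alternatives) unless, among libraries, FoxM1fl/fl injured 3 was left out (0.0249).

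Dnajb11, the J-domain partner of BiP in the ER lumen, was at 0, 0 and 2.26 FPKM in FoxM1fl/fl and 0, 0 and 3.31 FPKM in FoxM1-cKO SCs without injury. After injury, Dnajb11 was at 1148, 10.1 and 3514 FPKM in FoxM1fl/fl and 160.1, 12.1 and 6.32 FPKM in FoxM1-cKO SCs. It gave the highest value of any member, in FoxM1fl/fl injured 3, beside the low value in injured 2 of the same group. It rose in FoxM1fl/fl SCs (log2 change 7.91, SE 1.90, adjusted p = 0.0132 from limma), and the difference in FoxM1-cKO SCs did not pass (log2 change 3.94, SE 1.90, adjusted p = 0.141 from limma). The genotypes overlapped in injured SCs (log2 change -3.84, SE 1.90, adjusted p = 0.246 from limma). Dnajc7, which bridges HSP70 and HSP90, was at 0 in every library of both genotypes without injury. After injury, Dnajc7 was at 19.1, 34.8 and 0.946 FPKM in FoxM1fl/fl and 0, 9.38 and 0 FPKM in FoxM1-cKO SCs. It rose in FoxM1fl/fl SCs (adjusted p = 0.0461, limma). Dnajc17, which carries an RNA-binding domain, was at 0 in every library of both genotypes without injury. After injury, Dnajc17 was at 24.8, 0 and 60.1 FPKM in FoxM1fl/fl and 0, 0 and 1.92 FPKM in FoxM1-cKO SCs. Dnajc17 passed the filter through injured libraries alone. With injury Dnajc17 rose in FoxM1fl/fl SCs (adjusted p = 0.0493, limma), where 1 injured library was at 0. Injured genotypes overlapped (log2 change -3.02, SE 1.18, adjusted p = 0.146 from limma, range 0.00442 to 0.372 over alternatives), and the difference passed without that library, FoxM1fl/fl injured 2 (0.00442). The kept FoxM1fl/fl injured 1 followed a weighted sum that includes injured 3, so these libraries may not be independent.

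Dnajb4, a cytosolic relative of Dnajb1, was at 0 in every library of both genotypes without injury. After injury, Dnajb4 was at 0.159, 0.159 and 0 FPKM in FoxM1fl/fl and 6.99, 1.08 and 121 FPKM in FoxM1-cKO SCs. All injured FoxM1-cKO values lay above all others, with 121 FPKM in one, and the rise with injury passed in FoxM1-cKO SCs (adjusted p = 0.0282, limma). The difference between injured genotypes did not (log2 change 3.52, SE 1.09, adjusted p = 0.0732 from limma) but passed with a pseudocount of 0.1 (adjusted p = 0.0284, limma, range 0.0284 to 0.398 over alternatives). Dnajc10, an ER protein that opens disulfide bonds, was at 0, 0.771 and 0 FPKM in FoxM1fl/fl and 0 in every library of FoxM1-cKO SCs without injury. After injury, Dnajc10 was at 0.193, 0.963 and 1.64 FPKM in FoxM1fl/fl and 0.607, 3.21 and 6.72 FPKM in FoxM1-cKO SCs. It rose in FoxM1-cKO SCs (adjusted p = 0.0404, limma). Dnajb1 (HSP40), the main cytosolic partner of the inducible HSP70, was at 3.33, 0 and 70.6 FPKM in FoxM1fl/fl and 3.91, 7.72 and 0 FPKM in FoxM1-cKO SCs without injury. After injury, Dnajb1 was at 1.82, 1.04 and 0.368 FPKM in FoxM1fl/fl and 3.62, 23.3 and 229.9 FPKM in FoxM1-cKO SCs. Injured FoxM1-cKO values lay above all injured FoxM1fl/fl values without passing (log2 change 3.89, SE 1.68, adjusted p = 0.185 from limma).

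The other J-domain genes named by role did not pass in any comparison. Dnaja1, a farnesylated partner of cytosolic HSP70, ranged from 0 to 18.5 FPKM, Dnaja2, its close relative, from 0 to 28.9, Dnajb6, a suppressor of aggregation found at muscle Z-discs, from 0 to 24.0, and Dnajc3 (p58IPK), an ER co-chaperone of BiP, from 0 to 21.7 FPKM. For Dnajc3 the injured FoxM1-cKO values (10.6, 21.7 and 1.79 FPKM) lay above the injured FoxM1fl/fl values (0.455, 0 and 1.71 FPKM).

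The cytosolic chaperonin CCT held 7 of the 15 calls of members with injury in FoxM1fl/fl and 6 of the 13 in FoxM1-cKO SCs. Of its 8 tested subunit genes, Cct4 did not pass in FoxM1fl/fl and Cct3 and Cct8 did not in FoxM1-cKO SCs. The median changes over the 8 were 4.76 and 4.79 on the log2(FPKM + 1) scale (3.87 and 3.18 with groups at 0 set to 3 reads). All 8 were above 0 in each of the 6 injured libraries, and 0 to 3 of 8 in each uninjured one. Every uninjured library was at 0 for 5 of the 8 in FoxM1fl/fl and for 4 in FoxM1-cKO SCs. Such subunits could show no change with injury other than a rise. Cct2 and Cct6a, at 0 without injury in both genotypes, passed the filter through injured libraries alone. The mean was higher after injury for all 8 in both genotypes under every scaling tried, with the exception of Cct8 in FoxM1-cKO SCs after quantile normalization, but the number called in FoxM1fl/fl SCs fell to 4 with median-ratio scaling and to 0 with quantile normalization, and in FoxM1-cKO SCs to 5 and 2. Of all genes, these scalings called 18.1 and 6.86% in FoxM1fl/fl and 16.3 and 3.37% in FoxM1-cKO SCs. With reads thinned to 170701, 5 subunits were called in each genotype (13 and 15.8% of all genes).

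Cct4 (δ subunit) was at 28.2, 19.4 and 0 FPKM in FoxM1fl/fl and 0 in every library of FoxM1-cKO SCs without injury. After injury, Cct4 was at 349.9, 544 and 20.4 FPKM in FoxM1fl/fl and 1709, 907 and 1721 FPKM in FoxM1-cKO SCs. It was the most abundant member of the whole set in each injured FoxM1-cKO library, and all 3 values lay above all injured FoxM1fl/fl values without passing (log2 change 3.12, SE 1.52, adjusted p = 0.238 from limma). It rose from 0 in FoxM1-cKO SCs (adjusted p = 0.00131, limma) and missed the threshold in FoxM1fl/fl SCs (log2 change 4.25, SE 1.52, adjusted p = 0.0593 from limma), and the difference of these effects did not pass (adjusted p = 0.129, limma, range 0.0267 to 0.709 over alternatives) unless FoxM1fl/fl uninjured 3 was left out (0.0267). That fit kept FoxM1fl/fl uninjured 1, a weighted-sum library, so the libraries kept may not be independent. Cct5 (ε) was at 12.6, 3.12 and 0 FPKM in FoxM1-cKO and 0 in every library of FoxM1fl/fl SCs without injury. After injury, Cct5 was at 116, 59.7 and 257 FPKM in FoxM1fl/fl and 867, 571 and 55.0 FPKM in FoxM1-cKO SCs. It rose in both genotypes (adjusted p = 0.00482 in FoxM1fl/fl, from 0, and log2 change 6.30, SE 1.34, adjusted p = 0.00587 from limma in FoxM1-cKO), with no overlap between injured and uninjured values. Cct2 (β) was at 0 in every library of both genotypes without injury. After injury, Cct2 was at 28.7, 33.4 and 1.69 FPKM in FoxM1fl/fl and 37.7, 118 and 599 FPKM in FoxM1-cKO SCs. It rose in FoxM1fl/fl (adjusted p = 0.0475, limma) and in FoxM1-cKO SCs (adjusted p = 0.0023, limma), and its injured FoxM1-cKO values lay above its injured FoxM1fl/fl values without passing (log2 change 3.33, SE 1.25, adjusted p = 0.135 from limma).

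Cct3 (γ) gave the highest CCT value among uninjured libraries, at 0.499, 0.934 and 0 FPKM in FoxM1fl/fl and 232, 79.8 and 0 FPKM in FoxM1-cKO SCs without injury. After injury, Cct3 was at 188, 101 and 387 FPKM in FoxM1fl/fl and 86.2, 125 and 247 FPKM in FoxM1-cKO SCs. The value of 232 FPKM in uninjured FoxM1-cKO SCs lay within the injured range, and that of 79.8 FPKM just below it. Cct3 rose in FoxM1fl/fl SCs (log2 change 7.10, SE 1.68, adjusted p = 0.0124 from limma) and did not pass in FoxM1-cKO SCs (log2 change 2.39, SE 1.68, adjusted p = 0.299 from limma). The uninjured genotypes overlapped (log2 change 4.22, SE 1.68, adjusted p = 0.194 from limma), and the difference passed without FoxM1-cKO uninjured 3, the library at 0 (adjusted p = 0.00693, limma, range 0.00693 to 1.0 over alternatives). The kept FoxM1-cKO uninjured 2 followed a weighted sum that includes uninjured 1, so these libraries may not be independent. Cct8 (θ) was at 19.6, 4.83 and 1.75 FPKM in FoxM1-cKO and 0 in every library of FoxM1fl/fl SCs without injury. After injury, Cct8 was at 50.8, 36.1 and 55.2 FPKM in FoxM1fl/fl and 119, 15.8 and 13.2 FPKM in FoxM1-cKO SCs. It rose in FoxM1fl/fl SCs from 0 (adjusted p = 0.00606, limma), and in uninjured SCs all FoxM1-cKO values lay above the FoxM1fl/fl values, all at 0, without passing (adjusted p = 0.207, limma).

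Tcp1, the α subunit, was at 0, 0 and 1.23 FPKM in FoxM1-cKO and 0 in every library of FoxM1fl/fl SCs without injury. After injury, Tcp1 was at 99.7, 156 and 1.93 FPKM in FoxM1fl/fl and 13.1, 503 and 8.09 FPKM in FoxM1-cKO SCs. It rose in FoxM1fl/fl (adjusted p = 0.046, limma) and FoxM1-cKO SCs (log2 change 4.94, SE 1.67, adjusted p = 0.0468 from limma), though each injured group held both high and low libraries. Cct7 (η) was at 0, 0.401 and 0 FPKM in FoxM1fl/fl and 0 in every library of FoxM1-cKO SCs without injury. After injury, Cct7 was at 45.0, 77.2 and 2.27 FPKM in FoxM1fl/fl and 44.3, 19.6 and 15.4 FPKM in FoxM1-cKO SCs. It rose in FoxM1fl/fl (log2 change 4.35, SE 1.16, adjusted p = 0.0218 from limma) and, from 0, in FoxM1-cKO SCs (adjusted p = 0.0129, limma). Cct6a (ζ) was at 0 in every library of both genotypes without injury. After injury, Cct6a was at 7.31, 8.57 and 3.14 FPKM in FoxM1fl/fl and 11.1, 10.3 and 11.1 FPKM in FoxM1-cKO SCs. It varied from 3.14 to 11.1 FPKM after injury and rose in both genotypes (adjusted p = 0.0256 in FoxM1fl/fl and 0.00638 in FoxM1-cKO, limma). Cct8l1, a relative of Cct8, was above 0 in 2 libraries alone (4.38 and 8.34 FPKM, injured FoxM1fl/fl) and was not tested.

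Subunits of this complex sit side by side in equal number, yet their mRNA levels were far from equal. Between the highest and the lowest of the 8 in a library the ratio of FPKM was 47.9, 63.4 and 229 in injured FoxM1fl/fl and 153, 87.6 and 213 in injured FoxM1-cKO SCs. Summed over the 8, CCT reached 885, 1016 and 729 FPKM in injured FoxM1fl/fl and 2888, 2268 and 2670 FPKM in injured FoxM1-cKO SCs. This was 15.7, 21.8 and 9.03% of the summed FPKM of members in the first and 51.9, 51.0 and 60.1% in the second group, while Hsp90ab1 and Dnajb11 led in injured FoxM1fl/fl libraries. No subunit differed between injured genotypes by the test, and the sums, set out after their values were seen, are given without one.

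**Figure D4:**
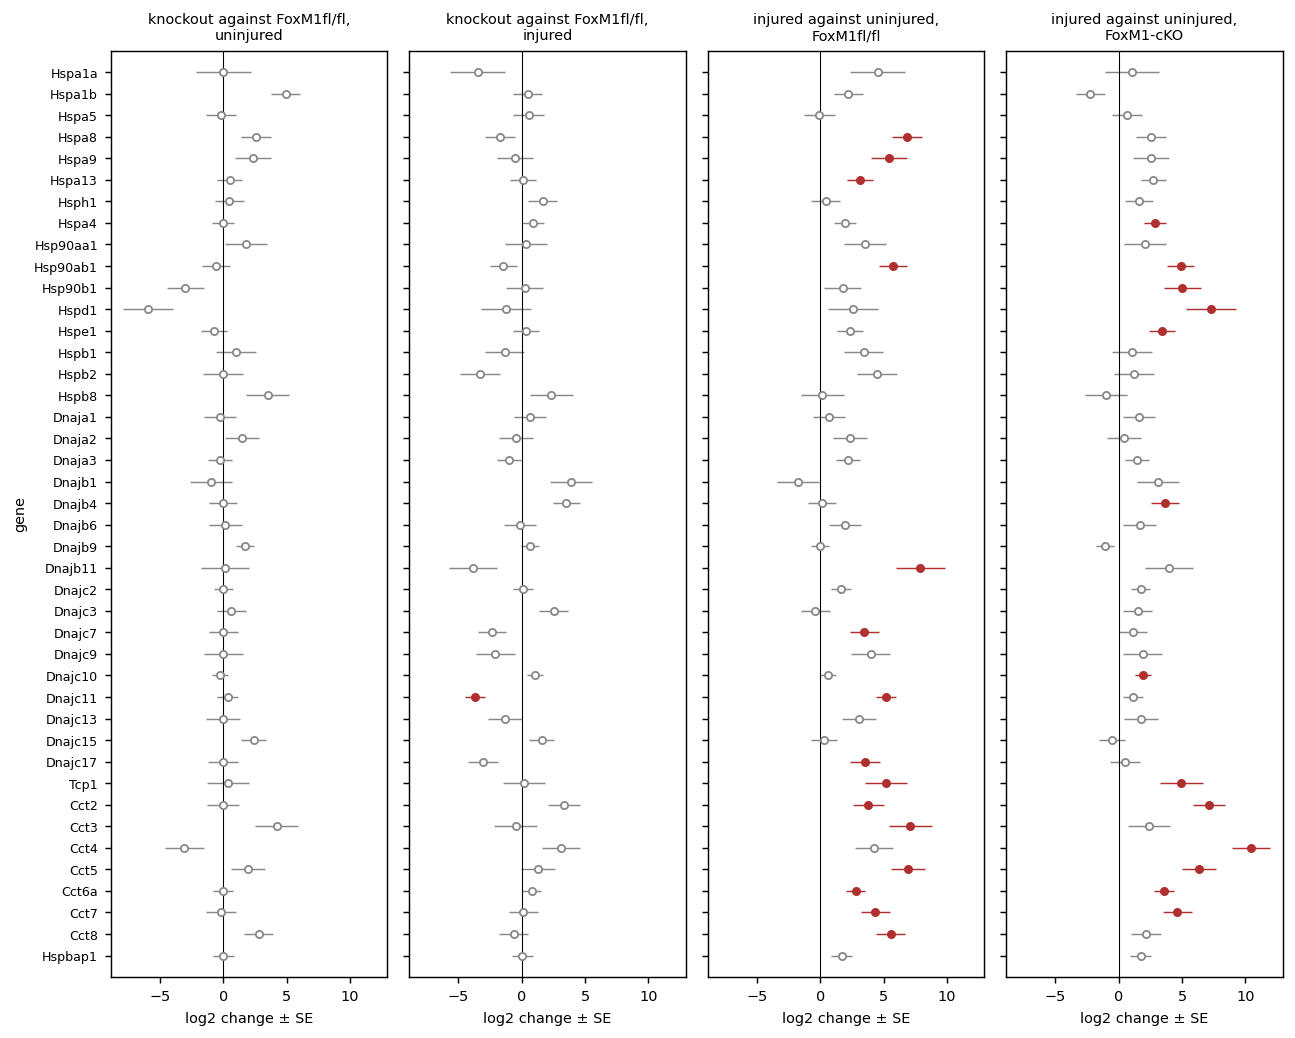
Change of each tested member on the log2(FPKM + 1) scale in the 4 comparisons between groups, with 1 SE of the limma fit, filled red where the adjusted p was under 0.05. Filled points number 0 and 1 for the genotypes and 15 and 13 for injury, and where a group was at 0 the plotted value depends on the pseudocount of 1 FPKM.

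Partners of these chaperones, from lists by function, were counted in the same way. Of the co-chaperones (18 tested), ER (10) and mitochondrial (6) folding genes and CCT helpers (4), 0 were called between uninjured genotypes and 1 (Lonp1) between injured ones. Of all genes tested, 1.53 and 7.81% were called in these comparisons. Among 18 tested co-chaperones of HSP70 and HSP90, 5 rose with injury in FoxM1fl/fl SCs and 7 in FoxM1-cKO SCs, with 0 falling (27.8 and 38.9%, against 18.8 and 23.4% of all genes tested). They included Ahsa1, which speeds the ATPase of HSP90 (adjusted p = 0.00629 and 0.00146, limma), and Bag3, an exchange factor of HSP70 (0.0293 and 0.036), both from 0 in uninjured SCs of FoxM1fl/fl mice. Of 10 tested ER folding genes, 3 rose in FoxM1fl/fl and 4 in FoxM1-cKO SCs (30.0 and 40.0%, against the same shares of all genes), P4hb, a disulfide isomerase, and Manf, a secreted ER stress protein, in both. P4hb changed by 3.49 (SE 1.09, adjusted p = 0.0414, limma) in FoxM1fl/fl and 8.65 (SE 1.09, adjusted p = 0.000795) in FoxM1-cKO SCs on the log2(FPKM + 1) scale.

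Prefoldin hands actin and tubulin to CCT, and of 4 tested genes of it and other CCT helpers 2 rose in FoxM1fl/fl and 1 in FoxM1-cKO SCs (where 18.8 and 23.4% of all genes rose), Pfdn5 in both (adjusted p = 0.0306 and 0.0131, limma). Of 6 mitochondrial folding genes, 1 rose in FoxM1fl/fl SCs (Lonp1, a matrix protease, adjusted p = 0.00317) and 2 in FoxM1-cKO SCs (Timm44 and Grpel1, both of the import motor with Hspa9, adjusted p = 0.0244 and 0.026, limma). The latter were 16.7 and 33.3%, against 18.8 and 23.4% of all genes. Lonp1 was also lower in injured FoxM1-cKO than FoxM1fl/fl SCs (log2 change -2.89, SE 0.73, adjusted p = 0.0266 from limma, range 0.00616 to 0.327 over alternatives). That call ended under 12 of 24 alternatives.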

How the data were processed

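Alignment by the authors was to mm10 (Bowtie 0.12.9). The authors' FPKM came from Cufflinks 2.1.1, and the authors used HTSeq to count reads and DESeq2 for their own tests. Only the deposited FPKM were analysed, which cover 13775 genes in 12 libraries, 13744 of them annotated by GENCODE M21. Annotation columns of the table were not used, and no reads were aligned here. Neither Pax7 nor Myf5 was analysed here.

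FPKM were put on the log2(FPKM + 1) scale, and the filter of 1 FPKM in 3 or more libraries left 4956 genes. A mean for each of the 4 groups was fitted over the 12 libraries by limma 3.58.1 (R 4.3.3) with a mean-variance trend, and Benjamini-Hochberg adjustment over the 4956 genes followed, with a call at an adjusted p under 0.05. A change understates that of low genes. The pseudocount sets the size of a change from 0, so none is printed for a gene at 0 in all libraries of a group, apart from 1 value of Hsbp1 given with that limit. The FPKM of a gene step by the value of 1 read, which gave each depth (whole within 0.02 reads plus 0.1%). Where the annotated length could not be fitted, the shortest fitting length was used, and reads are then the fewest possible. Precision is limited by these depths, above all in uninjured libraries.

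The members and lists were chosen with earlier results of these data known. Members were named if called in any comparison, if listed by role (the main HSP70, HSP110, HSP90, HSP60, HSP10, small heat shock and J-domain genes, Hsf1 and the CCT subunits), or if among the 4 smallest p in a comparison among members averaging 5 FPKM or more in its higher group. Up to 4 called genes per partner list were named. The lists were co-chaperones, prefoldin and CCT helpers, HSF1 partners, ER and mitochondrial folding genes, immediate early genes and cell markers.

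The results were recomputed with pseudocounts of 0.1 and 5, without a filter, with a filter at 5 FPKM, median-ratio scaling over 154 genes, quantile normalization, compared groups alone, a replicate block, the 3 weighted-sum libraries removed, and each library left out. A fit without the trend, protein-coding genes alone and reads thinned to 170701 were chosen after seeing the data. Tables and figures used Python 3.11.15, numpy 2.4.6, pandas 2.3.3 and matplotlib 3.10.9.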

Additional observations from a re-analysis of the deposited data

Results flagged for a closer look

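Hsbp1, which binds HSF1 and is known to restrain it, belongs to the partners of the heat shock factors and not to the members. Without injury, every FoxM1fl/fl library was at 0 and the FoxM1-cKO libraries held 179, 86.2 and 66.0 FPKM. After injury, FoxM1fl/fl libraries held 0, 0.645 and 0.912 FPKM, and FoxM1-cKO libraries 3.48, 0.489 and 0 FPKM. The uninjured FoxM1-cKO libraries thus lay above all others. It was singled out because its knockout effect differed between uninjured and injured mice by the limma test of that difference (log2 change -6.308, SE 1.30, adjusted p = 0.0422), a size that depends on the pseudocount since uninjured FoxM1fl/fl SCs were at 0. The adjusted p of this difference ranged from 0.00981 to 0.709 over alternatives. The difference between genotypes in uninjured SCs passed in itself (adjusted p = 0.00396, limma), as did the fall with injury in FoxM1-cKO SCs (log2 change -5.76, SE 0.92, adjusted p = 0.00148). The summed share of fibre genes was higher in the same 3 libraries than in uninjured FoxM1fl/fl SCs (13.4 to 25.9% against 1.37 to 6.34% of summed FPKM), although 1 of the 17 was called between these genotypes. The part of fibre genes in the Hsbp1 values was not tested.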

How the results depend on the processing

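The number of called members changed with most settings, and except where the setting tests fewer genes or libraries the cause was not tested. With a pseudocount of 0.1 it was 2 between uninjured genotypes (Hspa1b and Cct8) and, between injured genotypes, 1 higher member (Dnajb4) in place of 1 lower. Of all genes, 3.19 and 7.22% were called in these fits. For injury in FoxM1fl/fl SCs (15) it was 8 with a pseudocount of 5, 7 with no filter, 8 with median-ratio scaling, 2 with quantile normalization and 9 with the compared groups alone. For injury in FoxM1-cKO SCs (13) these were 7, 6, 7, 3 and 8. In these settings 10.6, 3.13, 18.1, 6.86 and 18.8% of all genes were called for injury in FoxM1fl/fl SCs. The shares for injury in FoxM1-cKO SCs were 15, 4.36, 16.3, 3.37 and 12.5%. The stricter filter gave 1 call between uninjured genotypes (Hspa1b) and 1 for the difference of effects (Dnajc11), and the fit without a trend 1 and 1. Of all genes, 2.83 and 6.2% were called with the stricter filter and 2.24 and 2.95% without a trend. Quantile normalization and the compared groups alone gave 0 between injured genotypes (2.76 and 0.101% of all genes). With the 3 weighted-sum libraries left out all counts were 0. With each library left out, counts ranged from 0 to 3, 0 to 5, 6 to 21, 6 to 16 and 0 to 2 in the order uninjured genotypes, injured genotypes, injury in FoxM1fl/fl, injury in FoxM1-cKO and difference of effects. In the same order, the share of all genes called ranged from 0.207 to 7.75%, 1.3 to 14.5%, 7.53 to 30.9%, 12.8 to 30.8% and 0 to 7.89%. Reads thinned to 170701 gave 0, 1, 11, 10 and 0 members in that order, with 1.08, 5.1, 13, 15.8 and 0.734% of all genes. The count for FoxM1fl/fl was 6 without FoxM1fl/fl uninjured 1 or injured 1 and 9 without FoxM1fl/fl uninjured 2 or FoxM1-cKO uninjured 2. That for FoxM1-cKO was 6, 8 and 7 without FoxM1-cKO uninjured 2, uninjured 3 and injured 2. Of named genes' results under an alternative, 1273 kept their side of the threshold, 380 lost a call, 15 gained one and 0 changed sign while called. Replicate numbers did not pair the libraries (18 pairs, r of deviations -0.0316 to 0.0545), and the replicate block gave 0, 1, 14, 13 and 0 calls. Of all genes, 1.03, 6.32, 19.4, 23 and 0% were called with that block. Over all genes, quantile normalization gave 145, 137, 340, 167 and 0 calls against 76, 387, 1029, 1215 and 54. Its split of higher and lower genes was 66 and 71 against 255 and 132 between injured genotypes, and 100 and 67 against 1158 and 57 for injury in FoxM1-cKO SCs. Median-ratio scaling gave 37 and 73 against 43 and 33 between uninjured genotypes, and all-gene medians of 1.09 and 1.28 for injury in FoxM1fl/fl and FoxM1-cKO SCs.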

Other observations

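Members outside the rule for named genes that stood high in single libraries, named after their values were seen, were Dnajc8, a J-domain protein linked to splicing, at 97.6, 202 and 0.264 FPKM in injured FoxM1-cKO SCs and 0 in every other library, and Dnajc1 and Dnajc24, at 176 and 163 FPKM in FoxM1-cKO injured 2. None of the 3 passed the filter. Dnajc9, a J-domain protein that handles histones, was found after injury alone: FoxM1fl/fl libraries held 46.4, 82.1 and 0 FPKM, and FoxM1-cKO libraries 1.07, 0 and 24.4 FPKM.

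Of 13 tested immediate early genes, Btg2, an early growth-arrest gene, was lower in FoxM1-cKO than FoxM1fl/fl SCs without injury (log2 change -5.30, adjusted p = 0.0211, limma) and fell with injury in FoxM1fl/fl SCs (-4.98, adjusted p = 0.00599, limma). Atf3, a stress-induced transcription factor, was lower in injured FoxM1-cKO than injured FoxM1fl/fl SCs (adjusted p = 0.0134, limma). Ier5, a known partner of HSF1, rose with injury in both genotypes (adjusted p = 0.0205 and 0.0293, limma), and Ier2 fell in FoxM1-cKO SCs (log2 change -5.67, adjusted p = 0.0244, limma).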
